A study of Homo sapiens with 3 samples.

Results

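The genes followed here are 10 axon guidance genes: the ligand genes SLIT1, SLIT2 and SLIT3, the receptor genes ROBO1, ROBO2, ROBO3 and ROBO4, and the netrin receptor genes DCC, UNC5C and UNC5D. They were chosen by name, with peak counts over them already known, as 10 of the 19974 protein-coding genes of the annotation. The counts that follow are therefore descriptions. The study mapped acetylation of histone H2A at lysine 130 by ChIP-seq in UMUC3 cells, an established human bladder cancer line. One library came from cells given cigarette smoke media (10% for 3 days), 1 from air-exposed cells and 1 was input, of which no file was used here. The protocol text on smoke stands on all 3 samples, and the smoke and air groups rest on the treatment label and the series' design text. Nothing in the labels tells of separate cultures. The smoke list held 23975 peaks and the air list 27010, each deposited for 1 library, so no difference below has a replicate check. Read depth is unknown.

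SLIT proteins are secreted and bind ROBO receptors on growing axons and migrating cells, which usually turn away from the source. Netrin acts through DCC, mostly as an attractant, and through UNC5 receptors, mostly as a repellent. DCC and the UNC5 receptors can promote cell death when netrin is missing. In epithelia, losses or silencing of SLIT2, ROBO1 and DCC are known from several carcinomas, which is why these genes are also studied as tumor suppressors. Lysine 130 lies in the C-terminal tail of H2A, outside the folded core of the nucleosome.

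The 10 genes spanned 6.28 Mb and held 53 smoke peaks (exact Poisson 95% interval 39.7 to 69.3) and 49 air peaks (36.3 to 64.8). Intervals here cover counting error only. Of the 10 genes, 7 had a smoke peak, where 23.6% of all protein-coding genes did, and 6 had an air peak, where 25.0% did. Most of the 10 are long, and long genes hold a peak more often. Among protein-coding genes of 200 kb or more, 86.2% had a smoke peak, 89.3% an air peak and 80.3% both. Of the 7 listed genes of that length, 6 had smoke peaks, 6 had air peaks and 5 had both. The pooled density was 8.43 smoke and 7.80 air peaks per Mb. All 1396 long protein-coding genes together held 9.15 and 10.6 per Mb, more in both libraries. The pooled 6.28 Mb includes SLIT1, ROBO3 and ROBO4, which are shorter than 200 kb and held 0 air peaks. The pooled and long-gene densities are therefore not quite like for like, and their difference was not tested.

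**Figure D1:**
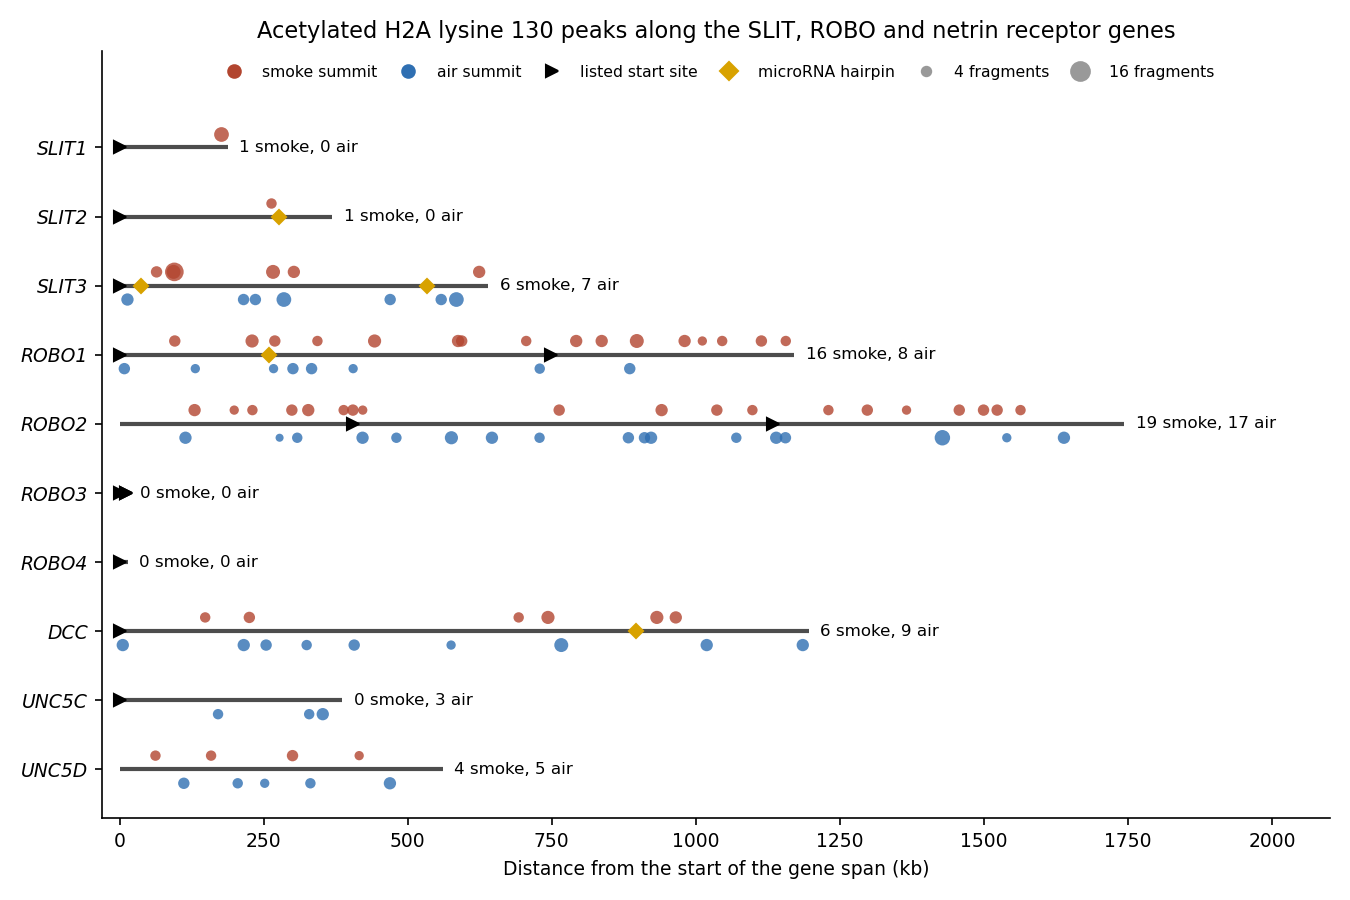
Peak summits along each gene, as distance in kb from the start of the gene span in the direction of transcription (UNC5D from its lower coordinate). Red points above each line are smoke summits, blue points below are air summits, point area gives the estimated number of fragments, and black and yellow marks are listed start sites and microRNA hairpins. ROBO1 and ROBO2 hold 60 of the 102 summits, and no summit lies within 0.5 kb of a listed start site.

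Nearly all of these peaks were low. From the deposited fold and p of a peak, a whole number of fragments at its summit and a background level were estimated. A whole number fitted within 0.001 on the −log10 p scale for 100% of both lists. More than 1 number fitted for 14 smoke and 159 air peaks, of which 0 lay over the 10 genes. By that estimate, 48 of the 53 smoke peaks and 44 of the 49 air peaks rested on 4 to 8 fragments. The median was 6 in both libraries, as it was in both whole lists. The median deposited fold was 3.76 over the 10 genes in smoke, as in the smoke list, and 4.06 in air, against 3.93 in the air list. A q of 0.05 or lower was given to 34.0% of the smoke peaks (95% Wilson interval 22.7 to 47.4) and 63.3% of the air peaks (49.3 to 75.3). In the whole lists these shares were 44.4% and 60.4%. The median width was 225 bp in smoke and 271 bp in air.

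**Figure D2:**
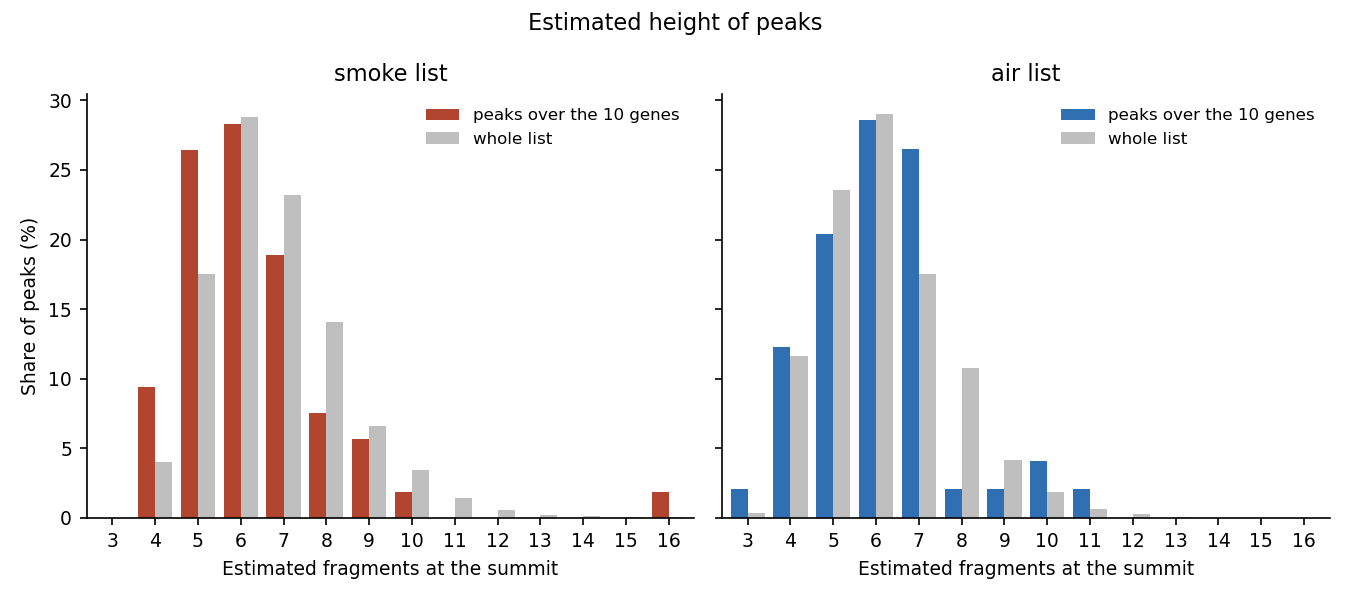
Share of peaks (%) by estimated fragments at the summit, for peaks over the 10 genes (coloured) and for each whole list (grey); the few list peaks above 16 fragments are not drawn. Both distributions peak at 6 fragments, and a single smoke peak, in SLIT3, reaches 16.

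SLIT3 held nearly all SLIT peaks, 6 in smoke and 7 in air. SLIT1 and SLIT2 held 1 smoke peak each and 0 air peaks. SLIT3, on chromosome 5 from 168661740 to 169301139 (hg38), spans 639 kb and is transcribed towards lower coordinates. Its density was 9.38 smoke (3.44 to 20.4) and 10.9 air peaks per Mb (4.40 to 22.6). The highest peak over all 10 genes lay here, in smoke, at 169206058 to 169206340, 94.98 kb from the start of the gene. It had a fold of 7.46, a −log10 q of 7.12 and an estimated 16 fragments, and 0.0375% of smoke peaks had a fold as high. A second smoke peak stood 1.37 kb from it (169207396 to 169207623, fold 4.43, 9 fragments). The air summit nearest to this pair was 80.03 kb away. The highest SLIT3 air peaks were at 169015997 to 169016262 (fold 5.99) and 168716525 to 168716868 (fold 5.96), each with an estimated 10 fragments. Both lie inside antisense RNA genes of the locus, SLIT3-AS1 and SLIT3-AS2. ChIP peaks carry no strand, so a peak there may belong to either gene.

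Background under the SLIT peaks was higher than under the other genes' peaks. The commonest estimated background in the smoke list, 0.861 fragments, held at 15516 of 23975 peaks and was also the lowest. It held at 0 of 8 SLIT peaks, at 30 of 35 ROBO peaks and at 9 of 10 peaks over DCC and UNC5D. SLIT3 peaks had a median background of 1.17 in smoke and 0.845 in air, where the commonest value was 0.724. The single SLIT1 smoke peak, with an estimated 10 fragments over a background of 1.75, had a fold of 4.0. The part of background in the number of SLIT peaks was not tested.

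SLIT2, the family member most often described as silenced in carcinomas, lies on chromosome 4 from 20251905 to 20620561 and spans 369 kb. Its 1 smoke peak (20513490 to 20513817) was weak, with a fold of 2.87, 5 fragments and a −log10 q of 0.721. Air had no peak from 20188407 to 20838594 (summit to summit), a stretch of 650 kb around the gene. Stretches that long made up 1.19% of all gaps in the air list, whose median gap was 59.9 kb. A gap around a gene of 369 kb without an air peak had to exceed 369 kb, so this share does not measure how rare it is. Among other protein-coding genes of 200 kb or more, 10.7% likewise had 0 air peaks. SLIT1, on chromosome 10 from 96998038 to 97185959 (188 kb), had its smoke peak at 97010213 to 97010540, near the far end of the gene.

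SLIT2 and SLIT3 each carry a gene of the microRNA miR-218 on their own strand, and the 2 hairpins give the same 5p sequence. This microRNA is known to target ROBO1. The sequences from RefSeq (GRCh38.p14) are shown 5′ to 3′ with the seed, bases 2 to 8, in capitals, because the ligand genes differ in which library has a peak near them.
hsa-miR-218-5p (MIR218-1 in SLIT2 and MIR218-2 in SLIT3): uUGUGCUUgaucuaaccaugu
hsa-miR-218-1-3p (SLIT2): aUGGUUCCgucaagcaccaugg
hsa-miR-218-2-3p (SLIT3): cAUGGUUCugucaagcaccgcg
The SLIT2 hairpin (chromosome 4, 20528275 to 20528384) stood 14.6 kb from the SLIT2 smoke peak and 310 kb from the nearest air summit. At the SLIT3 hairpin (chromosome 5, 168768146 to 168768255) the order was the other way: the nearest air summit was 25.1 kb away (fold 4.06) and the nearest smoke summit 91.0 kb. Neither hairpin lay under a peak, and these 4 distances rest on peaks of 5 to 7 fragments.

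ROBO1 was the one of the 10 genes with the largest smoke excess, 16 smoke peaks against 8 air peaks. It encodes a SLIT receptor found in many tissues besides the nervous system, and lies on chromosome 3 from 78597239 to 79767998 (1171 kb, minus strand). Its density was 13.7 smoke (7.81 to 22.2) and 6.83 air peaks per Mb (2.95 to 13.5), and the 2 intervals overlap. Smoke made up 66.7% of its peaks (46.7 to 82.0), and both whole lists together gave 47.0%, just inside that interval. Of 415 protein-coding genes with 10 or more peaks in all, 7.71% had at least 2 times as many smoke as air peaks, and 18.1% had the reverse. The smoke peaks were again low, with folds of 2.69 to 4.84 and 4 to 9 fragments. At a −log10 q of at least 2, 3 smoke peaks and 0 air peaks were left. The smoke peak of highest −log10 q, 2.15, was at 78870370 to 78870631 (fold 4.78), and the highest air peaks had a fold of 4.06.

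The ROBO1 excess lay in 1 part of the gene. A second listed start site, at 79019459, divides the span; this division was chosen after the peaks were seen. Between the first start and the second (749 kb), smoke had 8 peaks and air 7. Beyond the second start, over 422 kb, smoke had 8 peaks and air had 1, or 18.9 against 2.37 per Mb. The smoke share there was 88.9% (56.5 to 98.0), from 9 peaks. The 1 air peak of this stretch was at 78882537 to 78882807, and air had no other summit from there to 78440318, outside the gene, 442 kb away. That gap held 7 smoke summits, and 3.06% of all gaps in the air list were as long. The gap was picked out after the peaks were seen, so this share does not measure how rare it is.

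ROBO2, the receptor gene next to ROBO1, held most peaks of all 10 genes: 19 in smoke and 17 in air. It spans 1743 kb on chromosome 3 from 75906675 to 77649964, and its densities were 10.9 smoke (6.56 to 17.02) and 9.75 air peaks per Mb (5.68 to 15.6). By q, smoke peaks here were the weaker ones: 3 of 19 had a q of 0.05 or lower, and their folds ran from 2.48 to 4.30. In air 11 of 17 did, with folds of 2.32 to 6.96. The whole lists differ the same way, at 44.4% in smoke and 60.4% in air. The median ROBO2 peak had 6 fragments in both libraries. The highest air peak, at 77334328 to 77334570, had a −log10 q of 4.72 and an estimated 11 fragments, and 0.167% of air peaks had a fold as high. The 947 kb between ROBO2 and ROBO1, which hold 0 other protein-coding genes, carried 9 smoke and 8 air summits. That is 9.50 and 8.45 per Mb, a little below ROBO2 in both libraries.

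Some ROBO2 peaks stood near a start site; they were picked out after their values were seen. The gene span begins at 75906675, where no start site is listed. Listed starts are 76310880, 404 kb further on, and 77040099. A smoke peak (76311425 to 76311860, fold 3.76, 6 fragments) had its summit 0.595 kb past the first of these, the closest approach of any peak to a listed start of the 10 genes. Further on, 17.4 kb past the same start an air peak (76327903 to 76328333, fold 4.64, 7 fragments) stood 64 bp from a smoke peak (76328397 to 76328591, fold 2.69, 4 fragments). That was the nearest pair of opposite libraries over the 10 genes. At the second start the nearest air summit was 5.98 kb downstream and the nearest smoke summit 35.3 kb upstream.

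Sequences around these starts are shown because the 2 listed ROBO2 starts, called first and second, differ in composition. That of SLIT1 is shown because an air summit lay 1.61 kb upstream of it. Each window runs from 250 bases before the start site to 50 after it, in the direction of transcription, and CG dinucleotides are in capitals (RefSeq, GRCh38.p14).
ROBO2 first start, chr3:76310630-76310929, plus strand: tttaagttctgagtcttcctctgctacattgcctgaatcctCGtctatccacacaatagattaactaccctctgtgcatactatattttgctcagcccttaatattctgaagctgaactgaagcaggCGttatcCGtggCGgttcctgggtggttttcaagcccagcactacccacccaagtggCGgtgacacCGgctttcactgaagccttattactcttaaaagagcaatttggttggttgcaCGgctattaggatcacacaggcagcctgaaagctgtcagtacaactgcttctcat
ROBO2 second start, chr3:77039849-77040148, plus strand: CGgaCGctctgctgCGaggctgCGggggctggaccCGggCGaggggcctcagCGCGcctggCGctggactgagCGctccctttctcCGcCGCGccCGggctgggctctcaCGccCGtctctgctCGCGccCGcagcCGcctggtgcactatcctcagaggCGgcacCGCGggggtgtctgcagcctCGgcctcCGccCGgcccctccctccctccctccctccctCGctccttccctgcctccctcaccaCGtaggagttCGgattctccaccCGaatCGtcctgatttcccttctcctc
SLIT1, chr10:97185910-97186209, minus strand: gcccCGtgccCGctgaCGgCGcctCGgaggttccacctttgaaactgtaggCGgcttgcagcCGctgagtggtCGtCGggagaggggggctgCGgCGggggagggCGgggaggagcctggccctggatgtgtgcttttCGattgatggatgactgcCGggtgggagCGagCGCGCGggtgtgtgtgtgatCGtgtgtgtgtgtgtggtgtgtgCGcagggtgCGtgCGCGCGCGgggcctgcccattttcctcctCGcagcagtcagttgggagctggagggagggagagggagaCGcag
The first ROBO2 window holds 7 CG and the second 31, against a median of 21 over 22156 windows of protein-coding genes; 98.1% of those windows hold at least 1. The SLIT1 window holds 27. CG reads the same on both strands. A peak overlapped none of the 13 windows listed for 9 of the 10 genes, in either library. The start of UNC5D was not analysed here, and no window covers the start of the ROBO2 span. Over all protein-coding genes 0.280% of windows had a smoke peak and 0.343% an air peak, and 0 of 13 is near that background.

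ROBO3, which keeps crossing axons from turning back at the midline, and ROBO4, the receptor of blood vessel endothelium, had 0 peaks in either library. Both are short (16.04 and 14.2 kb) neighbours on chromosome 11, from 124865432 to 124881471 and from 124883691 to 124897865. The nearest smoke summits lay 50.1 kb from ROBO3 and 66.1 kb from ROBO4. The nearest air summits lay 113 kb and 96.2 kb away. Most protein-coding genes likewise held no peak in either list.

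The netrin receptor genes leaned towards air, with 10 smoke and 17 air peaks over DCC, UNC5C and UNC5D. The smoke share was 37.0% (21.5 to 55.8), an interval that holds the 47.0% of the whole lists. DCC lies on chromosome 18 from 52340197 to 53535899 (1196 kb, plus strand). It held 6 smoke and 9 air peaks, or 5.02 (1.84 to 10.9) and 7.53 per Mb (3.44 to 14.3). Chromosome 18 as a whole had 6.73 and 6.78 per Mb. The highest DCC peak was in air, at 53106473 to 53106759 (fold 5.80, −log10 q 3.10, 9 fragments). In smoke the highest were at 53083426 to 53083592 and 53272385 to 53272557, each with a fold of 4.84 and 8 fragments. Every DCC peak of both libraries had the commonest background of its list. Air peaks stood near both ends of the gene, with summits 5.47 kb past the start and 2.22 kb past the far end. Smoke came no nearer than 102.9 kb to the start and 231 kb to the end.

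UNC5C had 0 smoke and 3 air peaks. This repellent netrin receptor gene spans 386 kb on chromosome 4, from 95162504 to 95548973. The highest air peak was at 95196389 to 95196557 (fold 4.36, −log10 q 1.92, 7 fragments), and the other 2 had a fold of 3.48 and 5 fragments each. The 809 bp air peak at 95377453 to 95378261 was the widest over the 10 genes. The gene lies inside a stretch of 1443 kb without a smoke summit, from 94947183 to 96390231, in which air had 7 summits. Of 23952 gaps between smoke summits, 50 (0.209%) were as long, and the median was 68.8 kb. This gap holds a gene of 386 kb without a smoke peak, so it had to exceed 386 kb. The share of gaps therefore does not measure how rare it is. Of the 1396 long protein-coding genes, 3.80% had 0 smoke and 3 or more air peaks, and 1.50% the reverse.

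UNC5D, a netrin receptor gene on chromosome 8 from 35235475 to 35796540 (561 kb), held 4 smoke and 5 air peaks, 7.13 (1.94 to 18.3) and 8.91 per Mb (2.89 to 20.8). None of its smoke peaks had a q of 0.05 or lower. In air 2 of 5 did, and the highest had a fold of 4.64. In the whole lists 44.4% of smoke and 60.4% of air peaks had such a q. The nearest opposite summits within UNC5D were 31.0 kb apart.

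**Figure D3:**
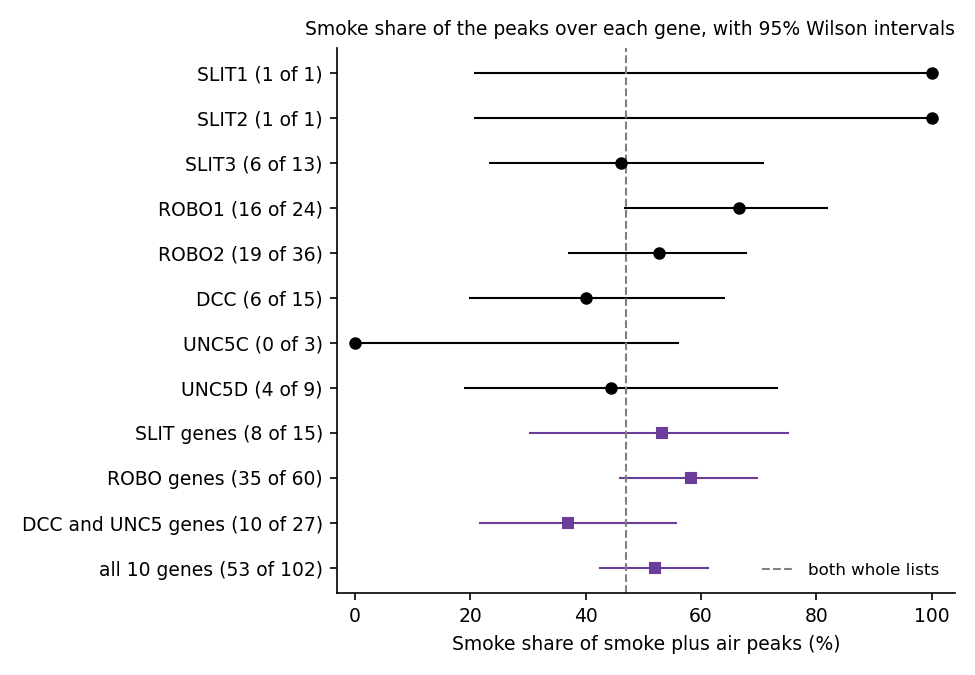
Smoke share of all smoke plus air peaks over each gene (black) and group (purple), in %, with 95% Wilson intervals; the dashed line is the share in both whole lists, 47.0%. Every interval includes the line, with ROBO1 (46.7 to 82.0) closest to leaving it.

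Over all 10 genes smoke made up 52.0% of the peaks (42.4 to 61.4), and over all long protein-coding genes 46.4%. ROBO genes stood at 58.3% (45.7 to 69.9), SLIT genes at 53.3% (30.1 to 75.2), and DCC with UNC5C and UNC5D at 37.0%. These 3 intervals overlap. Without ROBO1 the share over the other 9 genes was 47.4% (36.7 to 58.4), close to that of the lists. With peaks of −log10 q of at least 2 alone, 8 smoke and 16 air peaks remained, a share of 33.3% (17.97 to 53.3), and the lists themselves then gave 38.01%.

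No gene had a summit within 1 kb of either end of its span, in either library. Over all protein-coding genes 4.51% did, and 0 of 10 is near that background. Within 3 kb there were 2 genes, both in air: DCC, past its far end, and SLIT1. In air 7.20% of all protein-coding genes had a summit that near. The SLIT1 peak (97187220 to 97187668, fold 3.28, 8 fragments) had its summit 1.61 kb upstream of the start, inside the readthrough gene ARHGAP19-SLIT1. Within 10 kb, 4 genes had an air summit (SLIT1, ROBO1, DCC and UNC5D) and 1 a smoke summit, SLIT2, 5.40 kb past its far end. The shares over all protein-coding genes were 19.8% in air and 18.1% in smoke.

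Along the genes the peaks were spread nearly evenly. With each gene cut into 3 equal stretches in the direction of transcription (UNC5D from its lower coordinate), the first stretch held 36 of the 102 peaks, the middle one 33 and the last 33. The first stretch thus held 35.3% (26.7 to 44.9), where an even spread gives 33.3%. Smoke was thinnest in the middle stretch, with 24.5% of its peaks (14.9 to 37.6), and air was fullest there, with 40.8% (28.2 to 54.8). Cut into 2 equal stretches, ROBO1 held 5 smoke peaks in the first and 11 in the other, against 6 and 2 in air. In SLIT3, 5 of the 6 smoke peaks lay in the first of the 2. The intervals of all these shares include an even spread. Of the 102 peaks, 8 also lay inside another annotated gene, 4 of them in SLIT3.

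Smoke and air peaks over the 10 genes never overlapped. The share was 0 of 53 smoke and 0 of 49 air peaks, with upper 95% Wilson limits of 6.76% and 7.27%. In the whole lists 1.58% and 1.41% overlapped, both under those limits. Within 1 kb there was the 1 ROBO2 pair described above. Within 10 kb, 5 of 53 smoke peaks (9.43%, 4.10 to 20.3) and 5 of 49 air peaks (10.2%, 4.44 to 21.8) had a neighbour of the other library. The shares in the whole lists were 24.2% and 21.8%, both above the interval for the 10 genes, though in air by less than the rounding shown. The median distance to the nearest summit of the other library was 40.4 kb from smoke and 41.3 kb from air over the 10 genes, against 28.9 and 32.6 kb in the lists. Besides the ROBO2 pair, the closest summits were in ROBO1, 2.19 kb apart near the microRNA gene MIR3923, and in ROBO2 and DCC at 9.35 and 9.73 kb. The counts within 10 kb use peak edges. They thus include a further ROBO1 pair with edges 9891 bp and summits 10.1 kb apart.

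**Figure D4:**
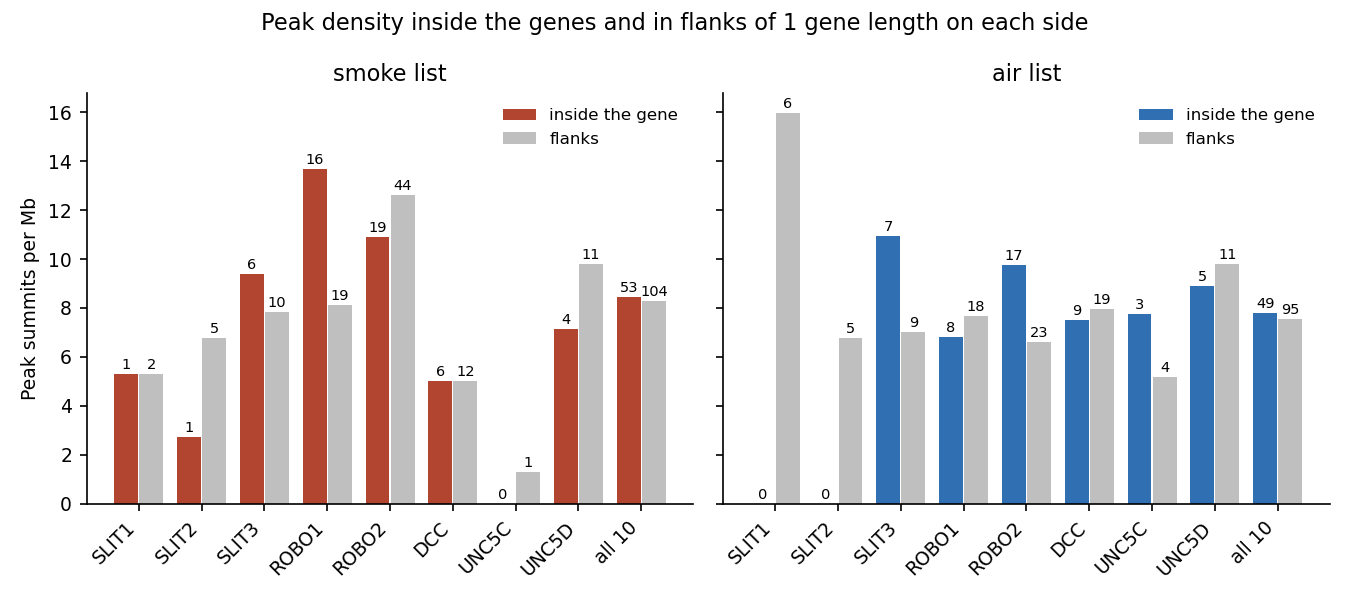
Peak summits per Mb inside each gene (coloured) and in flanks of 1 gene length on each side (grey), for the smoke list (left) and the air list (right), with the number of summits above each bar and the 10 genes pooled at the right. Pooled bars are nearly level in both libraries, at 8.43 and 8.28 per Mb in smoke and 7.80 and 7.56 in air. Flanks of ROBO1 and ROBO2 reach into the other gene, so the pooled flanks hold some of the genes' own summits.

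Pooled density inside the genes was close to that in their flanks, which are not wholly separate from the genes. Inside the 10 spans there were 8.43 smoke summits per Mb and in flanks of 1 gene length on each side 8.28, a ratio of 1.02 (exact 95% interval 0.718 to 1.43). In air the densities were 7.80 and 7.56, a ratio of 1.03 (0.715 to 1.47). ROBO1 had the highest smoke ratio, 1.68 (0.810 to 3.46), and 0.889 in air (0.334 to 2.15). ROBO2 had 0.864 in smoke (0.476 to 1.51) and 1.48 in air (0.741 to 2.89). SLIT3 stood above 1 in both, at 1.20 and 1.56. UNC5C had 1 smoke and 4 air summits in flanks of 0.773 Mb in all. The flanks of ROBO1 and of ROBO2 each reach into the other gene, and both take in the DNA between them. The pooled flank counts thus hold summits of these 2 genes and count some summits repeatedly. Flanks of 500 kb do not reach from either gene into the other. Pooled, they gave 1.07 (0.739 to 1.53) in smoke and 0.917 (0.632 to 1.32) in air, though flanks of neighbouring genes still overlap. With these flanks, ROBO2 had 1.21 in smoke and 1.08 in air, and ROBO1 1.52 and 1.14. The side of 1 thus changed for ROBO2 in smoke and ROBO1 in air. DCC (1.67) and SLIT3 (1.56) then had higher smoke ratios than ROBO1. The order of the genes by this ratio thus depends on the flank.

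**Figure D5:**
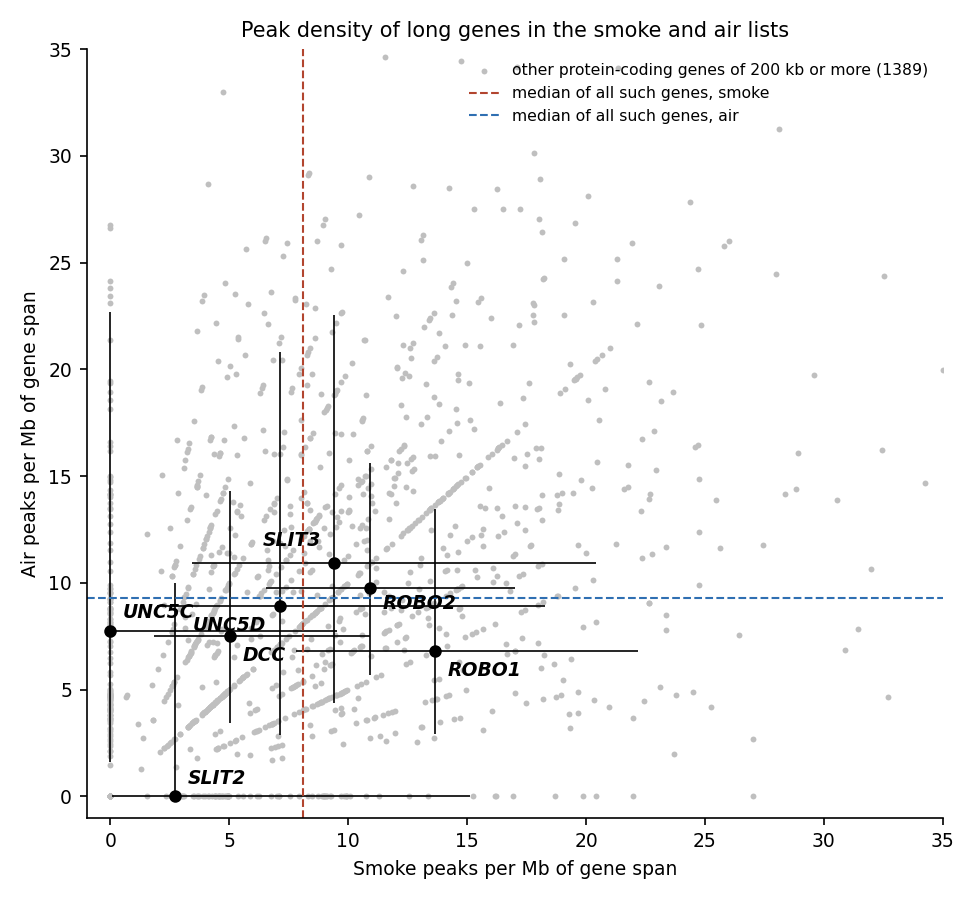
Smoke peaks per Mb (x) against air peaks per Mb (y) for protein-coding genes of 200 kb or more; black points are the 7 listed genes of that length with exact Poisson 95% intervals, grey points the other 1389, of which 10 lie beyond the axes, and dashed lines the medians of all such genes. SLIT2 and UNC5C lie on an axis, and the intervals of all 7 genes cross both medians.

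Against other long genes, the 7 ranged widely. SLIT2 in air and UNC5C in smoke were at 0 per Mb, as were 10.7% and 13.8% of long genes, and 78.0% of long genes had a smoke density at or below that of ROBO1. Their median density was 7.13 smoke and 7.76 air peaks per Mb, and the medians of the 1396 long genes were 8.10 and 9.28. In order of smoke density they ran ROBO1, ROBO2, SLIT3, UNC5D, DCC, SLIT2 and UNC5C, and in air SLIT3, ROBO2, UNC5D, UNC5C, DCC, ROBO1 and SLIT2. Neighbours in both orders had overlapping intervals. ROBO1 was high in the first order and low in the second. By density in both libraries, the genes of 200 kb or more nearest to the pooled 10 were STON1-GTF2A1L, LRP1B and TBC1D1, at distances of 0.0713, 0.0720 and 0.0721 in log2 of density plus 1. LRP1B, a lipoprotein receptor gene of 1900 kb, held 16 smoke and 14 air peaks.

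Related genes were counted the same way. Among 6 netrin family genes, 3 had no peak, NTNG1 and NTN4 had both kinds and NTN1 had smoke peaks only. NTNG1 held 4 smoke and 4 air peaks. NTN1, the classic ligand of DCC, held 2 smoke and 0 air. NTN4 held 2 and 3 and had the only gene-end peak among the netrin and further receptor genes, in air. Of all protein-coding genes, 4.51% had a summit within 1 kb of an end in either library. Of 5 further genes listed as netrin receptors, NEO1 (3 smoke, 1 air) and DSCAM (6 and 6) had both kinds and DSCAML1 had 1 smoke peak. UNC5A and UNC5B had 0. Over all protein-coding genes 23.6% had a smoke and 25.0% an air peak. Median lengths in these 2 lists were 108 and 254 kb, and long genes hold a peak more often.

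Among 24 modifiers and effectors of SLIT and netrin signalling, 11 genes held both kinds of peak, 5 only smoke peaks, 2 only air peaks and 6 no peak. In smoke 16 and in air 13 of the 24 had a peak, where 23.6% and 25.0% of all protein-coding genes did. The median length of the 24 was 169 kb, and long genes hold a peak more often. The 24 genes held 50 smoke and 31 air peaks, a smoke share of 61.7% (50.8 to 71.6), above the 47.0% of the lists. ABLIM1, an actin-binding protein gene linked to netrin guidance, held 10 smoke and 1 air peak. Without it the other 23 genes held 40 and 30, a share of 57.1% (45.5 to 68.1), an interval that includes 47.0%. DOCK1 held 6 and 8, and PRKCA, a protein kinase C gene, held 5 and 5. None of the 24 had a gene-end peak.

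Semaphorin and ephrin families served as a comparison. Semaphorins, plexins and neuropilins (31 genes) held 45 smoke and 44 air peaks, or 10.2 and 9.99 per Mb. SEMA3A led with 12 and 9, followed by SEMA3E (6 and 6), SEMA3D (5 and 5), PLXNC1 (5 and 4) and SEMA3C (3 and 6, with a gene-end peak in smoke). SEMA7A had a gene-end peak in air, outside its span. Ephrins and Eph receptors (22 genes) held 19 and 30, or 5.78 and 9.13 per Mb. EPHA6 led with 10 and 14, and EPHA3 had 2 and 5 and a gene-end peak in smoke. EPHA7 had 0 smoke and 5 air peaks, EPHA4 had 3 and 1. Gene-end peaks in either library were found at 4.51% of all protein-coding genes.

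Peak lists give no expression, so the label of the line could be checked only by peak counts at marker genes. Of 10 luminal urothelial markers, 2 had a smoke and 1 an air peak. Of 8 basal markers 2 and 2 did, of 7 mesenchymal markers 4 and 4, and of 8 neuronal markers 4 and 5. The shares over all protein-coding genes were 23.6% in smoke and 25.0% in air. The lists differ in gene length, with medians of 11.45, 29.7, 75.2 and 93.3 kb in that order, so these counts say little about the cells. SYT1, a synaptic vesicle gene of 588 kb, alone held 8 smoke and 12 air peaks.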

How the data were processed

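The series holds ChIP-seq of acetylated H2A in UMUC3 cells, with 1 smoke, 1 air and 1 input library; groups follow the treatment label. The tools Bowtie2, MACS and MACS2 and the builds hg38 and mm10 appear per the submitters' processing notes, without roles or versions. The filter behind these lists is not given in the sources used. Both lists were used as deposited, in the 10-column narrowPeak layout. The deposited score is about 10 times the −log10 p. The deposited fold, a ratio of fragments plus 1 to background plus 1, and the −log10 p and q come from the authors' peak caller.

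Genes came from the GRCh38.p14 table (19974 protein-coding); start sites, strands and sequences came from RefSeq tables. A peak counted when it overlapped a gene span by at least 1 bp; gene ends, flanks and positions used summits. Fragments at the summit were the whole number k for which fold and Poisson p both fit, within 0.001. Counts carry exact Poisson and shares Wilson 95% intervals (scipy 1.17.1). No p-value was computed with 1 library per group. Counting and the fragment estimate were tested on simulated data (200 spans, 1000 peaks) and recovered all of them.

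The members and lists were chosen with earlier results of these data known. Named were all 10 genes, their peak of highest −log10 q per library, shared peaks, peaks within 1 kb of an end, the 3 genes nearest in density, and from each further list genes with a gene-end peak and at most the 4 with most peaks. Further peaks near start sites, ends or each other were chosen after their values were seen. Those further lists are netrin family genes, genes listed as other netrin receptors, modifiers and effectors, semaphorins with plexins, and ephrins with Eph receptors. Luminal, basal, mesenchymal and neuronal marker lists were only counted. From them SYT1 alone, the marker with most peaks, is named, and markers with a gene-end peak are not. Alternatives covered thresholds, placement, flank size and gene-end distance.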

Additional observations from a re-analysis of the deposited data

How the results depend on the processing

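No paired analysis was possible because each group has 1 library, and no library could be left out. Placement by summit changed neither count, and 10 kb on each side gave 54 smoke and 53 air peaks. Stricter thresholds left fewer: 18 and 31 when −log10 q had to reach 1.3, 8 and 16 when it had to reach 2, 2 and 5 at a fold of at least 5, and 19 and 18 at 7 or more fragments, a setting chosen after seeing the data. The smoke share then fell to 36.7%, 33.3% and 28.6% at the first 3 of these, outside its interval of 42.4 to 61.4; the whole lists moved likewise, to 39.5%, 38.01% and 33.9%. At 7 or more fragments it was 51.4%, with the list share at 55.4%. Equal list sizes gave 55.8%, leaving out ROBO2 51.5% and the median over the 5 genes with peaks in both libraries 46.2%. Genes with a summit near an end numbered 0 within 500 bp and 1 kb, 2 within 3 kb and 5 within 10 kb. Peaks shared between libraries numbered 0 by overlap and 1 within 1 kb. Density against long genes and flank ratios stayed inside their intervals under the alternatives run. The share in the first of 3 stretches was 30.6% when −log10 q had to reach 1.3, inside its interval of 26.7 to 44.9. Cutting into 2 stretches is another measure, and the first then held 50%, as an even spread gives. A ratio to all protein-coding genes could not be given, since their median density is 0. Depth is unknown, and most peaks rest on 4 to 8 fragments, which limits every count. The share over modifiers and effectors, 61.7%, was 57.1% without ABLIM1, a setting chosen after seeing the data.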
